A study of Mus musculus with 8 samples.

Results

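The genes described here are 9 parts of the cytosolic nucleic acid sensing machinery: the RNA sensors Ddx58 (RIG-I), Ifih1 (MDA5) and Dhx58 (LGP2), the DNA and Z-nucleic acid sensors Mb21d1 (cGAS), Zbp1 and Aim2, the adaptors Mavs and Tmem173 (STING), and the kinase Tbk1. They were taken by symbol from 4 deposited tables, in which they make up 9 of 17553 gene symbols and 11 of 19353 transcripts, since Zbp1 and Mavs are each listed with 2 RefSeq transcripts. A test across all transcripts was run on those with a mean value of at least 20 over the 8 libraries, which kept 8 of these 11 transcripts from 7 of the 9 genes. Ifih1 and both Mavs transcripts lay below that level, and Zbp1 transcript NM_001139519 reached it only through its values after treatment.

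RNA was sequenced from lineage-negative (Lin-) bone marrow cells of C57BL/6 mice, a preparation enriched for haematopoietic stem and progenitor cells. Every group was labelled Ring1a-/- and Cdkn2a-/-, that is, without 1 of the alternative ubiquitin ligases of the Polycomb complex PRC1 and without the INK4A/ARF tumour suppressor locus. There were 4 contexts. Cells labelled NT had no gene transduced, and the others carried HOXA9, a homeobox gene, or a fusion gene of human leukaemia, PML-RARa or MLL-AF9. In each context, 1 library came from cells given ethanol for 72 h and labelled Ring1b WT (here the control library), and 1 from cells given OHT, 4-hydroxytamoxifen, for 72 h and labelled Ring1b KO (here the OHT library). The deposited NT columns are headed with a word for an empty condition. The labels do not say how many mice were used, whether contexts shared mice, or what drives the recombinase, so the contexts are the only replication. Each p-value rests on the spread among the contexts in its fit, 4 pairs in the main test. Fits of the transduced pairs alone, or with a context left out, have fewer. The tests also draw on the variance of all tested transcripts.

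Cytosolic sensors report nucleic acids that are out of place. Ddx58 and Ifih1 bind viral-type double-stranded RNA and signal through Mavs on mitochondria, and Dhx58 is a related helicase that lacks the signalling domain and tunes the other two. Mb21d1 turns cytosolic DNA into the messenger cGAMP, which activates Tmem173 on the endoplasmic reticulum. Both routes meet at Tbk1, which phosphorylates the factor that switches on type I interferon, and many of the sensors are themselves interferon-induced genes. Aim2 assembles an inflammasome on DNA, and Zbp1 binds Z-form nucleic acids and can start necroptosis.

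Values are the authors' normalised read counts, which were whole multiples of the lowest entry of each library. Totals of the recovered reads ran from 4226751 to 6998223 per library, and 2916 to 3868 of the transcripts in a library stood at the lowest entry, for which 0 and 1 read cannot be told apart. Rnf2, which encodes Ring1b, gave values of 666 to 990 in the control libraries and 767 to 856 in the OHT libraries (mean log2 ratio -0.04 ± 0.14 SE, limma adjusted p = 0.85). The tables hold 1 value per transcript and the labels do not say which exons are removed, so these values do not check the Ring1b KO label, and every direction below is that of the libraries labelled OHT. Ring1, which encodes Ring1a and is labelled -/- in all groups, still had values of 109 to 191 in the control and 23.8 to 77.8 in the OHT libraries (-1.81 ± 0.33, limma adjusted p = 0.040), so its values do not check that label either. Of 7 stem and progenitor marker transcripts, 5 reached the level for testing. Their list summed to 919 to 4120 in the control and 1011 to 5026 in the OHT libraries. Kit and Ly6a were thinly counted, with at most 29 and 7 reads in any library, whereas Gata2 averaged 2202 in the control libraries. Cd3e and Klrb1c (T and NK cells) were at the lowest entry in 7 libraries each. Summed monocyte and macrophage markers were 2400 to 5184 in the control and 11681 to 21619 in the OHT libraries. By limma 10 of 13 tested markers were higher after OHT, where 6.4% of all tested transcripts were. Of the 10, Marco and Siglec1 averaged under 20 in the control libraries and were tested only through their OHT values, so this count is a description. In bulk RNA, more cells of a type and more RNA per cell cannot be told apart.

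The promoter windows of 6 of the 9 genes (all but Dhx58, Zbp1 and Tmem173) came from the RefSeq table of build GRCm38.p6, each with 250 bases before and 50 after the annotated start. The stretches below show the interferon-stimulated response element (ISRE), searched as the letters GAAANNGAAA on both strands, which 2 of the 6 windows held, against 3.44% of 32841 windows of the same length. Capitals mark the match, which in Ddx58 lies on the opposite strand, 3 to 12 bases after the start, and in Ifih1 33 to 42 bases after it.
Ddx58, chr4:40239804-40239833, minus strand: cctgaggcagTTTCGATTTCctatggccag
Ifih1, chr2:62646206-62646235, minus strand: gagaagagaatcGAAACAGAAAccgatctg
The GAS element, searched as TTCNNNGAA, was in 0 of the 6 windows, against 8.3% of all. A match describes these letters only.

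CpG density before the start, the sequence feature most often linked with Polycomb binding, is shown for an RNA sensor that rose (Ddx58), a DNA sensor that did not pass the test (Aim2) and the shared kinase (Tbk1). Capitals mark each CG in the 250 bases before the start.
Ddx58, chr4:40239826-40240075, minus strand: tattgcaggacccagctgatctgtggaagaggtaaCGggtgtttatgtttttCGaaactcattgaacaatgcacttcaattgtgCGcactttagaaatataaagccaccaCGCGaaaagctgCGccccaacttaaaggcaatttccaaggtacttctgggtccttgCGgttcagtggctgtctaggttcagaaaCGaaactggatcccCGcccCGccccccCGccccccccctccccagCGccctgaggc
Aim2, chr1:173420354-173420603, plus strand: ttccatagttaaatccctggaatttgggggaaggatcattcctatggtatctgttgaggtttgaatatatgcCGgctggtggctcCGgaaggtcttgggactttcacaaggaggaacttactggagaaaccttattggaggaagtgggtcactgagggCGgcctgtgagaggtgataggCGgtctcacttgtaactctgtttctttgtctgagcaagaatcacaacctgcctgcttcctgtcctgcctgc
Tbk1, chr10:121586795-121587044, minus strand: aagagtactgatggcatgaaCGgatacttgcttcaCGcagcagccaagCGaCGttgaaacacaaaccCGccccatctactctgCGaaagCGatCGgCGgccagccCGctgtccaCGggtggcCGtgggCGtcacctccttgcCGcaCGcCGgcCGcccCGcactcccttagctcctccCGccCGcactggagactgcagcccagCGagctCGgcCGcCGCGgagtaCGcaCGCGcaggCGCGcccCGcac
Aim2 had 4 CGs in this stretch, Ddx58 12 and Tbk1 31, against a median of 6 over all windows, and 5.19% of windows had as many as Tbk1 or more. No level or ratio below was tested against CpG content.

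After OHT, 3 sensor genes rose across the 4 contexts: Zbp1, Ddx58 and Dhx58. By the limma test, 4 of the 8 tested transcripts passed upward and 0 downward, where 6.4% of all 10599 tested transcripts passed upward and 7.48% downward. Of the 4, Zbp1 NM_001139519 averaged under 20 in the control libraries and was tested only because of its OHT values, so its pass supports nothing. The other 3 come from the same 3 genes. At an unadjusted p under 0.05, which 38.0% of all transcripts reached, the count was 4 higher and 0 lower. On the recovered reads edgeR and DESeq2 each called the same 4 transcripts upward, against 12.0% and 16.7% of all. The median of the mean log2 ratios was 0.70 over the 8 transcripts, among them Zbp1 NM_001139519, and -0.03 over all transcripts tested. Without Zbp1 NM_001139519 the middle value of the members was that of Tbk1, 0.39. Mb21d1, Aim2, Tmem173 and Tbk1 did not pass. The OHT value was above its own control value in all 4 contexts for 5 of the 8, as for 22.9% of all tested transcripts. These were Tbk1 and the 4 called, so this count also holds Zbp1 NM_001139519 and is a description. No member had all OHT values below all control values, which held for 12.6% of all.

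**Figure D1:**
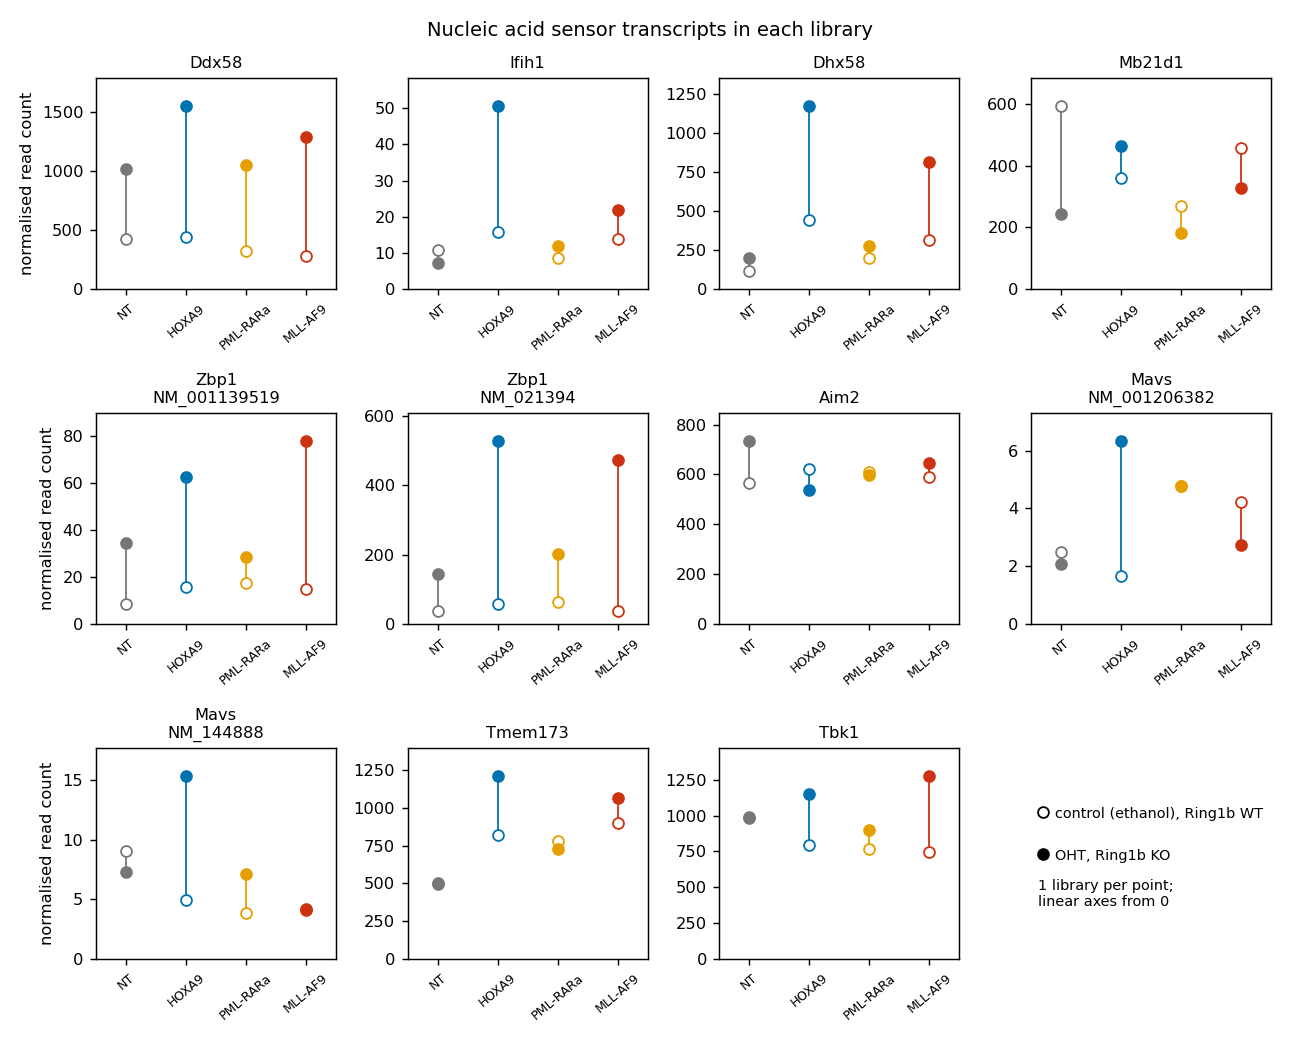
Normalised read count (linear axis from 0, a scale of its own in each panel) of the 11 transcripts in each context. Open points are the control and filled points the OHT library, 1 library per point, and a filled point can cover an open one of almost the same value. Filled points lie above all open points for Ddx58 and both Zbp1 transcripts, while Aim2 lies between 537 and 735 in every library.

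Ddx58, the helicase that recognises RNA with a 5′ triphosphate, rose in every context. Its normalised read count was 423 in the control and 1015 in the OHT library of NT, and 442 and 1547 in HOXA9. The PML-RARa libraries had 319 and 1046, and those of MLL-AF9 275 and 1285. The lowest OHT value was thus more than 2-fold above the highest control value, and the groups did not overlap, which held upward for 8.28% of all tested transcripts. The OHT over control ratio was 2.40 in NT (95% interval 2.16 to 2.68), 3.50 in HOXA9 (3.18 to 3.87), 3.28 in PML-RARa (2.89 to 3.74) and 4.67 in MLL-AF9 (4.06 to 5.38). These intervals cover counting error of 1 library pair only. The mean log2 ratio, on the log2(value + 1) scale used for all fits, was 1.75 ± 0.18 (SE, n = 4 pairs, limma adjusted p = 0.035). From lowest to highest the OHT libraries spread by 1.52-fold and the control libraries by 1.60-fold, and MLL-AF9, with the highest ratio, had the lowest control value, 0.651 times that of NT. Leaving out any 1 context ended the call for Ddx58, with an adjusted p of 0.060 to 0.10 and a mean log2 ratio of 1.59 to 1.91.

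Dhx58, the regulatory relative of Ddx58, rose by less and started from very unequal levels. NT had 117 in the control and 197 in the OHT library, HOXA9 441 and 1172, PML-RARa 196 and 276, and MLL-AF9 314 and 816. OHT values were higher in each of the 4 contexts, but the groups overlapped, since the HOXA9 control library stood above the OHT libraries of NT and PML-RARa. The ratio was highest in HOXA9 (2.66) and MLL-AF9 (2.59), and lower in NT (1.69) and PML-RARa (1.41). Over the contexts the mean log2 ratio was 1.01 ± 0.21 (SE, n = 4 pairs, limma adjusted p = 0.045). This call did not hold with no filter on low values (adjusted p = 0.070), without the context block (0.36) or when any context was left out (0.10 to 0.13), while edgeR on the recovered reads gave 0.023.

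Ifih1, which senses long double-stranded RNA, was counted too thinly to be tested, with 7 to 56 reads per library. Its values were 10.8 in the control and 7.27 in the OHT library of NT, 15.8 and 50.7 in HOXA9, 8.61 and 11.9 in PML-RARa, and 13.8 and 21.8 in MLL-AF9. The HOXA9 OHT library stood apart from the other 7, at 3.21 times its control (95% counting interval 1.88 to 5.73). In the other 3 contexts the counting interval of the ratio included 1, from 0.228 to 1.82 in NT. Ifih1 has 2 RefSeq mRNAs but 1 entry in the tables. Over the tables, the median was 59.6 reads per kb for genes with 1 entry and 1 mRNA, 25.2 for those with 1 entry and several mRNAs, and 2.63 for those with several entries. The part of this in the low level of Ifih1 was not tested.

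Zbp1, which senses Z-form RNA and DNA, had the largest mean ratio of the 8 tested transcripts. Transcript NM_021394 had 37.2 in the control and 145 in the OHT library of NT, 58.1 and 528 in HOXA9, 62.2 and 201 in PML-RARa, and 37.1 and 472 in MLL-AF9. All OHT values were above all control values, and HOXA9 and MLL-AF9 were the highest after OHT. Its ratio was 12.7 in MLL-AF9 (95% counting interval 8.98 to 18.6) and 9.09 in HOXA9 (7.09 to 11.8), against 3.91 in NT (2.77 to 5.60) and 3.23 in PML-RARa (2.42 to 4.37). On average the log2 ratio was 2.60 ± 0.39 (SE, n = 4 pairs, limma adjusted p = 0.036). With a context left out it was 2.26 to 2.91, with an adjusted p of 0.080 to 0.10.

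The other Zbp1 transcript, NM_001139519, had fewer reads and moved the same way. NT had 8.27 in the control and 34.3 in the OHT library, HOXA9 15.8 and 62.4, PML-RARa 17.2 and 28.6, and MLL-AF9 14.8 and 77.8, with no overlap between the groups. Its mean log2 ratio was 1.72 ± 0.29 (SE, n = 4 pairs, limma adjusted p = 0.038). It averaged 50.8 in the OHT libraries, with no control value above 17.2, so it entered the test through its OHT values, and this p is given as a description only. With no filter on low values, the fit in which no such entry is needed, it did not pass (adjusted p = 0.055), nor when any context was left out (0.098 to 0.11). How reads shared by the 2 Zbp1 transcripts were counted is not given in the sources used here, so their values are not separate measurements of the gene.

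Mb21d1, the enzyme that makes cGAMP, did not pass the test and varied in sign between contexts. Its values were 594 in the control and 244 in the OHT library of NT, 361 and 464 in HOXA9, 270 and 181 in PML-RARa, and 458 and 326 in MLL-AF9. The OHT library was the lower of the pair in 3 contexts and the higher in HOXA9. The largest of these differences was in NT, with a ratio of 0.411 (95% counting interval 0.353 to 0.477), a value 2-fold or more below control that 8.76% of transcripts reached in that pair. Over the 4 contexts the mean log2 ratio was -0.50 ± 0.28 (SE, limma adjusted p = 0.26, 95% interval -1.23 to 0.24), and it was -0.23 without NT and -0.78 without HOXA9. The NT ratio minus the mean of the 3 transduced ratios was -1.04 ± 0.50 on the log2 scale (unadjusted p = 0.11, limma adjusted p = 0.98).

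Aim2, the DNA sensor of the inflammasome, had the narrowest spread of control values of the 9 genes. Its control value was 566 for NT, 622 for HOXA9, 610 for PML-RARa and 589 for MLL-AF9, a spread of 1.10-fold. After OHT they were 735, 537, 596 and 644 in the same order. The NT library stood above its control by a ratio of 1.30 and the HOXA9 library lay below it at 0.863, and the groups overlapped. Over the contexts the mean was 0.07 ± 0.14 on the log2 scale (SE, limma adjusted p = 0.76), and its 95% interval of -0.30 to 0.43 leaves out a 2-fold change in either direction.

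**Figure D2:**
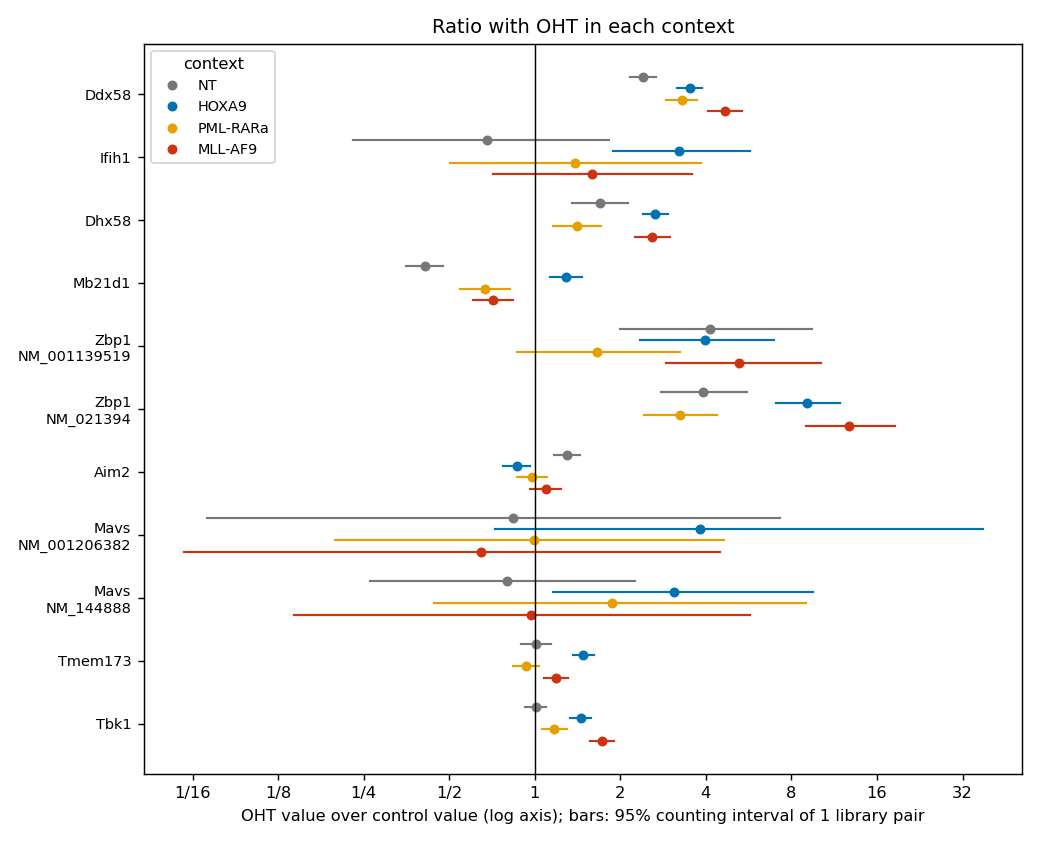
OHT value over control value (log axis) of the 11 transcripts in each context, with bars for the 95% counting interval of that library pair. Ddx58 and Zbp1 NM_021394 lie to the right of 1 in all 4 contexts, with Zbp1 NM_021394 reaching 12.7 in MLL-AF9, and Mb21d1 lies to the left in 3 of 4.

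The adaptors and the kinase showed no change that passed the test. Tmem173, the receptor for cGAMP, had 497 in the control and 501 in the OHT library of NT, 817 and 1211 in HOXA9, 783 and 727 in PML-RARa, and 899 and 1067 in MLL-AF9. Its values separated NT from the transduced contexts more than they separated OHT from control. Its mean log2 ratio was 0.18 ± 0.15 (SE, limma adjusted p = 0.43, 95% interval -0.22 to 0.58), and it was 0.050 without HOXA9 and 0.27 without PML-RARa.

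Tbk1, the kinase downstream of both adaptors, had 981 in the control and 987 in the OHT library of NT, 795 and 1153 in HOXA9, 769 and 900 in PML-RARa, and 742 and 1277 in MLL-AF9. The 2 NT libraries were almost equal, and each transduced OHT library was above its own control, with ratios of 1.72 (MLL-AF9), 1.45 (HOXA9) and 1.17 (PML-RARa). The mean log2 ratio over the 4 contexts was 0.39 ± 0.17 (SE, limma adjusted p = 0.16, 95% interval -0.05 to 0.82), and 0.26 without MLL-AF9. In the 3 transduced pairs alone it was 0.51 ± 0.18 (limma adjusted p = 0.16), and DESeq2 on the recovered reads gave an adjusted p of 0.033 there.

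Mavs, the mitochondrial adaptor of Ddx58 and Ifih1, was near the limit of detection in both listed transcripts, and none of its values was tested. NM_144888 had 4 to 11 reads per control library and 3 to 17 per OHT library, and NM_001206382 had 2 to 5 and 2 to 7. The highest value of each was in the OHT library of HOXA9, at 15.4 and 6.33. The counting interval of that HOXA9 ratio was 1.16 to 9.57 for NM_144888 and 0.726 to 37.6 for NM_001206382, and in the other 3 contexts it included 1 for both. Mavs has 4 RefSeq mRNAs and 2 entries, and the low counts of such genes in these tables, given above for Ifih1, were not tested as a part of its level.

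Compared per kb of transcript, the adaptor Tmem173 and the kinase Tbk1 were the most abundant of these RNAs in the control libraries. Their medians were 348 and 259 normalised reads per kb, and their ranges overlapped (216 to 391 and 245 to 324). Aim2 followed with 211, below every Tbk1 value, though its range of 199 to 219 overlapped that of Tmem173. Dhx58 (106), Mb21d1 (101) and Ddx58 (95.7) could not be ordered, since their ranges of 48.4 to 183, 66.6 to 147 and 71.1 to 114 overlapped. The Zbp1 transcripts were lower, with medians of 24.0 for NM_021394 and 19.9 for NM_001139519, and Ifih1 (2.24) and Mavs (1.51 and 1.17) were lowest and overlapped each other. After OHT the medians were 390 for Tmem173, 354 for Tbk1, 301 for Ddx58, 226 for Dhx58, 218 for Aim2, 169 for Zbp1 NM_021394 and 70.4 for Mb21d1. Zbp1 NM_001139519 had 62.8 after OHT. Ddx58 and Zbp1 NM_021394 thus stood above Mb21d1 by median after OHT, and neither did in the control libraries. The highest density was 0.58 reads per base for Tmem173 and 0.54 for Dhx58. Leaving out all transcripts over 0.5 removed these 2 and kept the calls for Ddx58 and both Zbp1 transcripts. The call for Zbp1 NM_001139519 still supports nothing, since that transcript was tested only through its OHT values.

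**Figure D3:**
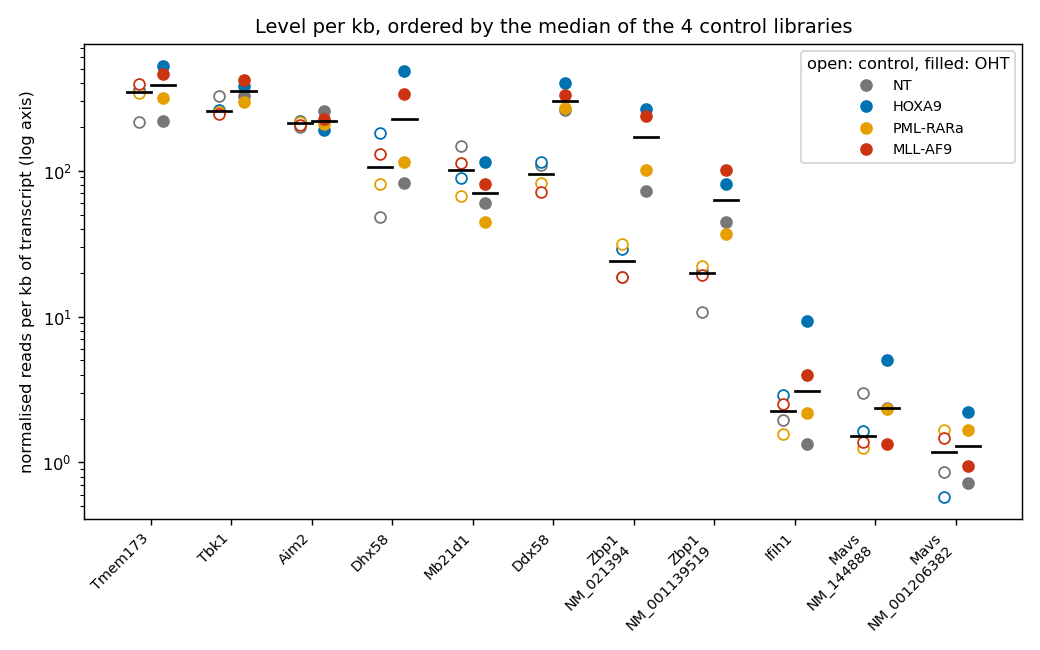
Normalised reads per kb of transcript (log axis) in the control (open) and OHT (filled) libraries, ordered by the control median, with a bar for the median of each 4 libraries. Tmem173 leads with a control median of 348, the Zbp1 transcripts lie near 20 and Ifih1 and Mavs below 3.

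The contexts were compared in the control libraries without a test, since each has 1 library and the 3 ratios share the NT library. Dhx58 stood out, at 3.78 times the NT control in HOXA9 (95% counting interval 3.13 to 4.58) and 2.70 times in MLL-AF9 (2.20 to 3.32), against 1.68 in PML-RARa. Dhx58 was the only member at least 2-fold over NT with a value of 20 or more in the higher library, in HOXA9 and in MLL-AF9. Of all transcripts with such a value, 11.7% and 8.77% were there, and no member was in PML-RARa (12.5%). Tmem173 was 1.64, 1.57 and 1.81 times NT in HOXA9, PML-RARa and MLL-AF9. Mb21d1 was lower than in NT in the same 3 contexts, at 0.608, 0.454 and 0.772, and Tbk1 at 0.811, 0.784 and 0.756. By the same rule Mb21d1 in PML-RARa was 2-fold or more under NT, as were 8.43% of transcripts, and no member was in HOXA9 (7.45%) or MLL-AF9 (10.9%). Of the 8 tested transcripts, 4 were above the NT control in each transduced control library (Dhx58, Tmem173, Aim2 and Zbp1 NM_001139519), as were 23.4% of all, and 2 were below it in each (Mb21d1 and Tbk1), as were 32.5%.

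Single contexts were compared by how many transcripts had an OHT value at least 2-fold over control, among those with 20 or more in the higher library. In NT 3 of 8 member transcripts did, against 13.8% of all such transcripts, and in HOXA9 5 of 9, among them Ifih1, against 9.13%. In PML-RARa 2 of 8 did (9.06%) and in MLL-AF9 4 of 9 (14.6%). Zbp1 NM_001139519 in NT, HOXA9 and MLL-AF9, and Ifih1 in HOXA9, had control values under 20. They met the level only through OHT and could count only upward, so the counts that hold them are descriptions. Ddx58 and Zbp1 NM_021394 were in all 4 of these counts, and Dhx58 in those of HOXA9 and MLL-AF9. At least 2-fold under control was Mb21d1 in NT, and no member in HOXA9, PML-RARa or MLL-AF9. Of all transcripts with 20 or more in the higher library, 6.39%, 13.7% and 16.0% were in those contexts.

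HOXA9 and MLL-AF9 held the 2 highest OHT ratios for 6 of the 8 tested transcripts, where 23.0% of all tested transcripts had that order. The exceptions were Zbp1 NM_001139519, whose highest ratios were in MLL-AF9 and NT, and Aim2, whose highest were in NT and MLL-AF9. This is a description of 4 library pairs. No member passed the test of NT against the 3 transduced ratios by limma, nor did any of the 10599 transcripts (0.0%), of which 5.41% had an unadjusted p under 0.05, with 0 of the 8 members among them. In the 3 transduced pairs alone limma called 0 member transcripts and 0.245% of all transcripts, with 5 member transcripts at an unadjusted p under 0.05 (Ddx58, Dhx58, both Zbp1 transcripts and Tbk1), which 30.2% of all reached. There edgeR called 2 upward, Ddx58 and Zbp1 NM_021394 (3.43% of all), and DESeq2 all 5 (11.2%). Both counts of 5 hold Zbp1 NM_001139519, which was tested only through its OHT values, so they are descriptions. Ddx58 had a mean log2 ratio of 1.91 ± 0.18 in the transduced pairs (limma adjusted p = 0.060).

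Across the 8 libraries, the transcripts most like each member were found by Pearson correlation of log2 values, a description with no test over libraries that share contexts and treatment. Ddx58 went most closely with Tex264 and Parp9 (r = 0.99 each), and Dhx58 with Gbp3 (0.99) and Gbp5 (0.97). Zbp1 NM_021394 went with Slfn5 (0.99) and Pik3ap1 (0.99), and NM_001139519 with Icam1 (0.99) and the macrophage marker Cd68 (0.99). The members that did not pass had other neighbours: Gpaa1 and Dpy19l1 for Mb21d1, Ing4 and 1110054M08Rik for Aim2, Gal and Fndc3b for Tmem173, and Kynu and Abcc5 for Tbk1. Tex264 and Kynu averaged 17.2 and 11.4 in the control libraries, so they were among the tested transcripts only through their OHT values. Among the members themselves, Ddx58 and Zbp1 NM_021394 had r = 0.94, Dhx58 and Tmem173 0.90, and Mb21d1 with Aim2 -0.55. Tbk1, which did not pass, had 0.84 with Ddx58, 0.81 with Zbp1 NM_021394 and 0.52 with Dhx58, while Ddx58 and Dhx58 had 0.59.

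Around the 9 genes, 7 lists of pathway partners gave 102 tested transcripts, of which 18 rose and 3 fell, with a median log2 ratio of 0.22, beside 6.4% of all tested transcripts that rose and 7.48% that fell. Of the 18, 4 averaged under 20 in the control libraries and were tested only because of their OHT values (Oasl1, Mnda, Ifi205 and Il18), so counts that hold them are descriptions. Among the other cytosolic RNA and DNA receptors 11 of 27 tested transcripts rose and 0 fell (median 0.57), 8 of them with a control mean of 20 or more. Oasl1, of the oligoadenylate synthetase family, had a mean log2 ratio of 5.16 ± 0.71, with control values of 1.66 to 18.2 and OHT values of 123 to 338. Mnda (4.48 ± 0.61), Ifi205 (4.20 ± 0.79) and Ifi204 (3.32 ± 0.48) belong with Aim2 to the PYHIN family of DNA-binding proteins. The other 7 were Oas2, Ddx60, Oas3, Mndal, Oas1g, Pyhin1 and Oas1a, and reads of the Oas1 and PYHIN genes may be split between near-identical copies. Aim2 did not pass while 5 listed relatives in its family rose, and the difference between them was not tested. The count of 5 holds Mnda and Ifi205, tested only through their OHT values, and is a description.

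**Figure D4:**
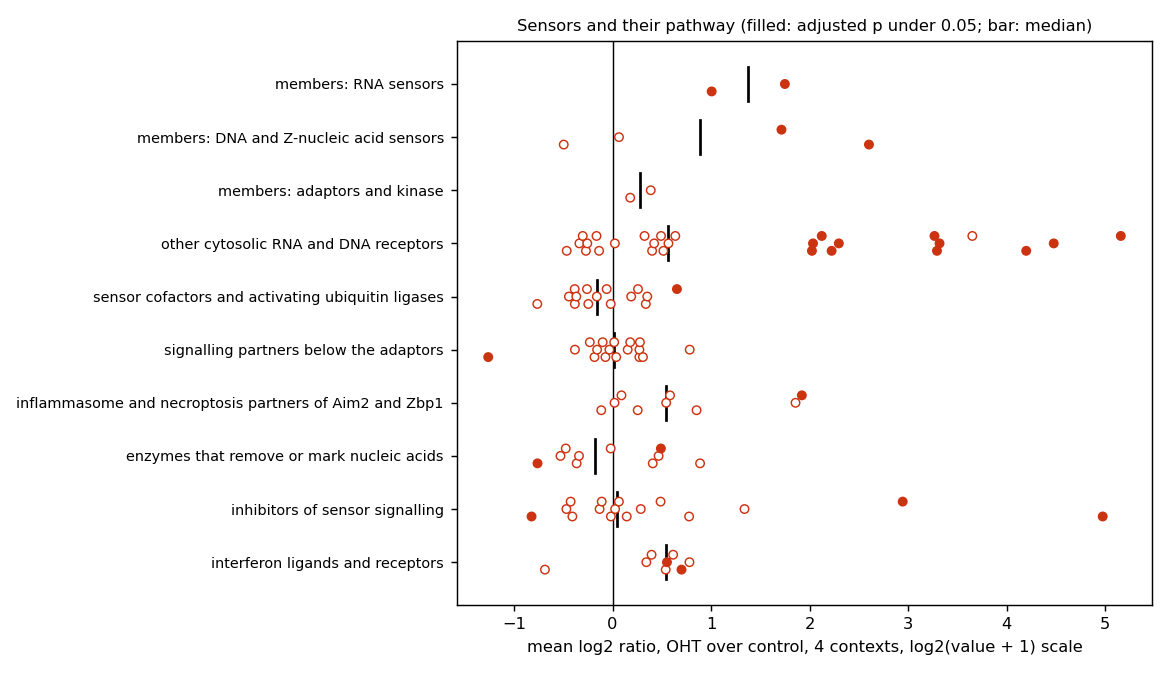
Mean log2 ratio of OHT over control over the 4 contexts, 1 point per tested transcript, for the members by role and for 7 lists of pathway partners, with filled points at a limma adjusted p under 0.05 and a bar at each median. Of the receptors 11 of 27 are filled on the right, and of the signalling partners 0 of 17.

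For the genes that carry the signal onward, the limma counts lay near the share of all transcripts given above, and nothing is read from them. Of 17 signalling partners below the adaptors, 0 rose and 1 fell, Ikbkb, the kinase IKK-beta (-1.26 ± 0.27, median of the list 0.02). edgeR did not call this fall and called 1 partner upward, Traf5, where 12.0% of all transcripts were called upward. Of 15 sensor cofactors and activating ubiquitin ligases, 1 rose, Rnf135 (0.65 ± 0.10), a ligase that acts on Ddx58, and the median was -0.16. Of 9 inflammasome and necroptosis partners of Aim2 and Zbp1, 1 rose by limma, the cytokine Il18 (1.92 ± 0.40), which was tested only through its OHT values. By edgeR 4 rose, where 12.0% of all transcripts did. The median was 0.54, with 8 of 9 ratios positive, as were 47.5% of all tested transcripts. These are descriptions.

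Enzymes that remove or mark nucleic acids, and the brakes on the pathway, were mixed. Beside the limma counts of these lists, 6.4% of all tested transcripts rose and 7.48% fell, and the counts are descriptions. Of 10 such enzymes, the lysosomal nuclease Dnase2a rose (0.49 ± 0.11) and Rnaseh2a, the catalytic subunit of RNase H2, fell by 0.76 ± 0.14 on the log2 scale (median of the list -0.18). Of 16 inhibitors of sensor signalling, Usp18 (4.98 ± 0.82) and Isg15 (2.95 ± 0.47) rose and Rnf125, a ligase that marks Ddx58 for degradation, fell by 0.82 ± 0.15, with a median of 0.05. Usp18 removes the ubiquitin-like protein Isg15 and both are known interferon-induced genes. Of 8 tested interferon ligands and receptors, Il10rb (0.70 ± 0.15) and Jak1 (0.55 ± 0.12) rose and 0 fell by limma (median 0.55). By edgeR Ifngr1 of this list also fell, and Atg5 of the inhibitors also rose.

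The interferon gene Ifnb1, picked after its values were seen, was at or near the lowest entry in every control library. In the OHT libraries it had 3.12 (NT), 4.52 (HOXA9), 1.19 (PML-RARa) and 16.4 (MLL-AF9, from 12 reads), and it was below the level for testing.

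Monocyte and macrophage markers rose in the same libraries as Ddx58, Dhx58 and Zbp1, while Aim2 and Mb21d1 did not. Their summed value was 4659 in the control and 12197 in the OHT library of NT, and 5184 and 21619 in HOXA9. PML-RARa had 3362 and 11681, and MLL-AF9 2400 and 17554. The 2 highest OHT sums were thus in HOXA9 and MLL-AF9. Those contexts also held the 2 highest OHT values of Zbp1 NM_021394, Ddx58 and Dhx58. The same held for Mb21d1, Tmem173 and Tbk1, which did not pass the test, but not for Aim2. Examples of the monocyte and macrophage markers are Csf1r (2.34 ± 0.41 log2) and C1qa (5.17 ± 0.70). Of the 10 that rose, 8 had a control mean of 20 or more. Marco and Siglec1 were tested only through their OHT values, so the count of 10 is a description. Beside this and the marker counts below, 6.4% of all tested transcripts rose and 7.48% fell. Dendritic cell markers summed to 91.8 to 171 in the control and 472 to 1080 in the OHT libraries, with 1 of 2 tested markers higher (Itgax), and Zbtb46, Cd209a and Siglech at 13 reads or fewer. Erythroid and megakaryocyte markers summed to 395 to 3937 in the control and 1609 to 6514 in the OHT libraries, with 1 of 5 higher (Gp9). Among the other marker lists, 0 of 9 neutrophil markers passed the test, 1 of 5 stem and progenitor markers fell (Myb) and 1 of 8 mast cell, basophil and eosinophil markers fell (Epx). Summed B, T and NK cell markers, almost all from Nkg7, were 237 to 550 in the control and 44.3 to 156 in the OHT libraries. The part of the marker changes in the results for the sensors was not tested.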

How the data were processed

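RNA-seq libraries of 8 mouse samples, 1 for each context and treatment, were grouped by their labels. Per the submitters' processing notes, TopHat, DESeq and mm9 were used, without versions. The read counter is not given in the sources used here. Per the file headers, the 4 tables hold a normalised read count made by the authors (base mean, a signal value) for each transcript and library. The deposited ratio is the authors' fold change, OHT over control, the deposited log2 column is its log2, and the deposited p-value compares 1 library with 1 library and was not used. Of 36 symbols that had been turned into dates, 35 were restored.

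Dividing each library by its lowest value gave whole reads for 100% of values (tolerance 0.02). limma 3.58.1 (R 4.3.3) was run two-sided on log2(value + 1) with the context as a block, over 10599 transcripts with a mean of at least 20, and calls had a Benjamini-Hochberg adjusted p under 0.05. This scale understates the change of low values. SEs are moderated. edgeR 4.0.16 (quasi-likelihood) and DESeq2 1.42.0 on the recovered reads were alternatives; edgeR called 2235 and DESeq2 3130 transcripts in the 4 contexts. Within a context, ratios carry an exact conditional 95% interval for counting error. The limma and edgeR fits were tested on simulated data. Lengths came from GENCODE M21, promoter sequence from RefSeq.

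The libraries of a pair have the same context label, and the context is the block. Whether they also share mice is not given in the labels. The members and lists were chosen with earlier results of these data known. All 9 members are named, with up to 4 genes per pathway list (the largest absolute mean log2 ratio among those past the test), and the 2 transcripts most correlated with each tested member. Beyond that rule, Ifnb1, other receptors past the test and the markers given as examples were picked after their values were seen.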

Additional observations from a re-analysis of the deposited data

Results flagged for a closer look

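In NT, Ifih1 had a log2 ratio of -0.51 with OHT (log2(value + 1) scale), opposite in sign to its ratios in HOXA9, PML-RARa and MLL-AF9. The difference between NT and the 3 transduced contexts was not tested, because the transcript lies below the level for testing, and the NT value rests on 13 control and 7 OHT reads. With 1 library in each group, no sample could be checked against others of its group.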

How the results depend on the processing

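The 4 member transcripts called over the 4 contexts were also called with a pseudocount of 10, with centred ratios, by edgeR and by DESeq2. Of the 4, Zbp1 NM_001139519 was tested only through its OHT values. These fits keep the same filter, so its repeated calls support nothing. With no filter on low values 2 member transcripts were called, without Zbp1 NM_001139519. With any 1 context left out 0 were (range 0 to 0), where 0 to 26 of all transcripts were called in place of 1471. All transcripts called were 354 with no filter, 1629 with a pseudocount of 10, 1494 with centred ratios, 1044 without those over 0.5 reads per base, 2235 by edgeR and 3130 by DESeq2. Without the context block, which pairs the libraries, 3 member transcripts, among them Zbp1 NM_001139519, and 999 of all transcripts were called. In the 3 transduced pairs limma called 0 member transcripts, edgeR 2 and DESeq2 5, the last with Zbp1 NM_001139519 among them. Of all transcripts they called 26, 534 and 1955. Aim2, which never passed, changed sign: its mean log2 ratio over the 4 contexts was -0.038 without NT (-0.038 to 0.16 with a context left out), and that of the transduced pairs became 0.022 with centred ratios, 0.060 by edgeR, 0.047 by DESeq2 and -0.12 to 0.049 with a context left out, positive without HOXA9. The difference between NT and the transduced contexts for Zbp1 NM_001139519 was 0.28, and -0.19 without PML-RARa (-0.19 to 0.62 with a context left out). The causes were not tested, beyond fewer libraries where a context was left out. Ifih1 and Mavs have too few reads for a test.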
